A study of Mus musculus with 4 samples.

Results

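The cells described here are high-RNA myeloid cells of the mouse spleen that the authors' cell type annotation does not name. They were chosen from measured values. A member is a cell barcode absent from the annotation with more than 9000 unique molecular identifiers (UMIs, each a count of 1 captured RNA molecule) and under 5% of them from mitochondrial genes. The genes Lyz2, Cst3, Fcer1g and Tyrobp had to sum to 0.3% or more of its UMIs. Each of Cd79a (B cells) and Cd3e (T cells) was allowed at most 2 UMIs, and Jchain (plasma cells) had to stay under 0.5%. The rule found 138 of 27577 barcodes, a share of 0.500% (95% interval 0.421% to 0.591%).

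The study profiled sorted splenocytes by 10x Genomics droplet RNA sequencing in 4 groups of C57BL/6 mice, with 1 library per group. Young wild type (WT) and aged WT mice carried a floxed miR-155 gene (miR155 fl/fl) and no deletion. The aged miR-146a knockout lacked miR-146a in the whole body. The fourth group lacked miR-146a in the whole body and also carried a conditional deletion of miR-155 in T cells, and is called the double knockout, although by design its myeloid cells keep miR-155. Aged mice were 15 months old, and spleens were pooled within a group (3 to 6 mice). The sources used here do not give the age or pool size of the young mice, nor the Cre that deleted miR-155. The sort took live (DAPI-negative) CD45+ cells of low forward and side scatter, a gate for lymphocytes that large or granular myeloid cells can fall outside. Each group is 1 pooled library, so there is no replicate and no test between groups. Every interval is at 95% and covers counting error only, not the spread between mice, pools or preparations. Intervals of summed UMIs and of their ratios also leave out the spread between cells.

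Myeloid cells arise in the bone marrow, and the spleen holds neutrophils, monocytes, macrophages and dendritic cells, together with some dividing precursors. Neutrophil granules are made in sequence during maturation. The proteases and peroxidase of the primary granules (Elane, Prtn3, Ctsg, Mpo) come first, and the secondary granule proteins (Ngp, Camp, Ltf, Lcn2), under the transcription factor C/EBP-epsilon, come later. MicroRNAs lower the output of messenger RNAs that pair with their seed, bases 2 to 8. miR-146a is known for restraining NF-kB signalling and the production of myeloid cells, and miR-155 for promoting T cell and inflammatory responses.

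The mature sequences of both deleted microRNAs are shown because they define the groups. They were taken from RefSeq on GRCm38.p6, with the seed in capitals.
mmu-miR-146a-5p: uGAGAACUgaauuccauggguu
mmu-miR-155-5p: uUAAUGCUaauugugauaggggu
The first lies in the Mir146 gene on the minus strand at chr11:43374435-43374456, and the second in the Mir155 gene on the plus strand at chr16:84714143-84714165. The seeds differ. The assay does not count mature microRNAs, and the host transcript Mir155hg gave 2 UMIs in the knockout members and 0 UMIs in the members of the other 3 libraries, so the members carry no check of either deletion.

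The members lay mostly in the knockout libraries. Young WT held 2 members among 7626 barcodes (0.0262%, 0.00318% to 0.0947%), and aged WT held 6 among 6952 (0.0863%, 0.0317% to 0.188%). The miR-146a knockout held 79 among 5702 (1.39%, 1.10% to 1.72%), and the double knockout held 51 among 7297 (0.699%, 0.521% to 0.918%). The knockout share was 16.1 times that of aged WT (7.01 to 36.8). The double knockout share was 8.10 times that of aged WT (3.48 to 18.9) and 0.504 times that of the knockout (0.355 to 0.716). The interval of aged over young WT was wide, since the 2 libraries held 8 members between them, and its ratio was 3.29.

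Annotated myeloid cells were also more numerous in the knockouts, with 223 in young and 191 in aged WT, 715 in the knockout and 919 in the double knockout. Set against annotated myeloid cells plus members, the members made up 0.889%, 3.05%, 9.95% and 5.26% in the same order. The knockout excess over aged WT was 3.27-fold on this denominator (1.45 to 7.38). The double knockout share was 1.73 times that of aged WT (0.751 to 3.97), an interval that spans equality. The UMI minimum can itself set such shares. The median barcode held 2188.5 UMIs in young and 2007 in aged WT, 2638.5 in the knockout and 2289 in the double knockout. Annotated Ly6c+ monocytes held a median of 4502, 4442, 6776.5 and 5637 UMIs in that order, and annotated granulocytes 743, 1351.5, 4213 and 4286. Among unannotated barcodes above 9000 UMIs, the members were 4.76% of 42, 6.52% of 92, 29.2% of 271 and 21.3% of 240. The part of the depth gap in the shares was not tested.

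**Figure D1:**
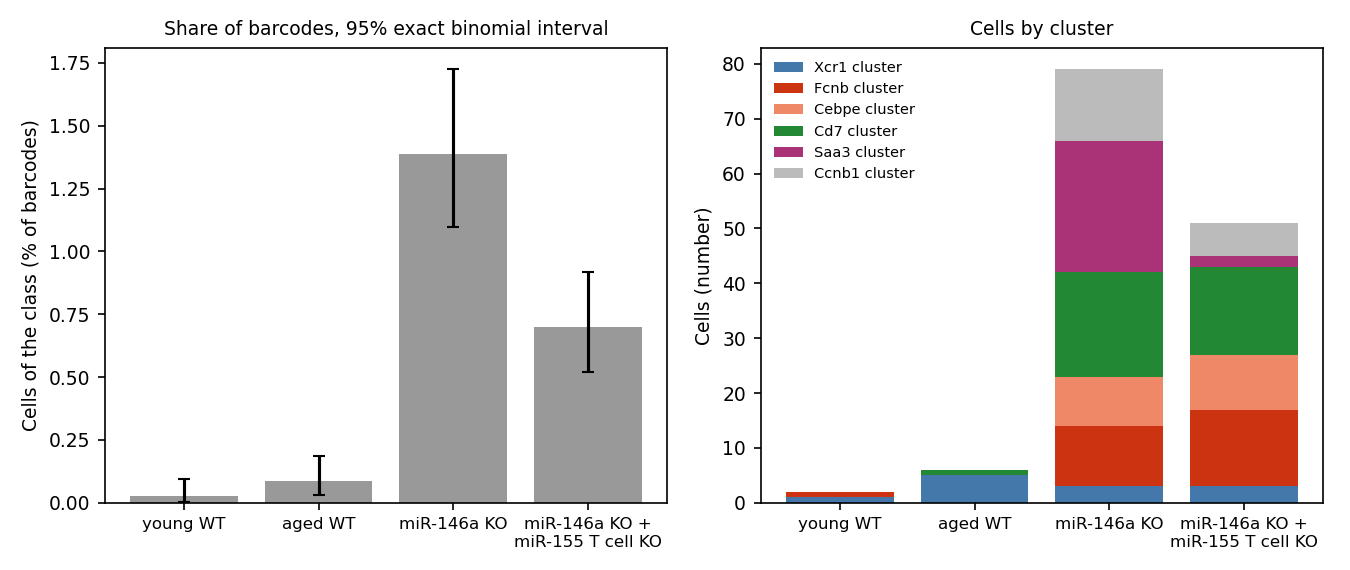
Left, members as a percent of all barcodes in each of the 4 libraries, with exact 95% intervals as error bars; right, the number of members in each library by cluster. The knockout (1.39%, 79 cells) stands highest, followed by the double knockout (0.699%, 51 cells), and the WT libraries hold 2 and 6 cells.

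The values used by the rule are given as a description. Of 3434 unannotated barcodes, 645 had more than 9000 UMIs, 641 of these were under 5% mitochondrial, 169 passed the marker minimum and 138 the lymphoid limits. Members held 9011 to 17404 UMIs (median 10362.5) and 1619 to 3990 genes (median 2652.5). Their mitochondrial share ran from 0.284% to 3.43%, and their marker share from 0.373% to 6.00%. The member with the fewest UMIs had 9011, and the nearest barcode that failed only on UMIs had 8888. The highest mitochondrial share inside was 3.43% and the nearest outside 5.73%, and the lowest marker share inside was 0.373% and the nearest outside 0.270%. A lymphoid count of 3 UMIs, the next above the limit, was the nearest among 29 barcodes that failed on Cd79a or Cd3e alone, while 106 members had 0 UMIs of both. The highest Jchain share among members was 0.0197%. No annotated cell had more than 9001 UMIs, so the members lie beyond the annotated range, and 165 annotated cells of 7000 UMIs or more met the rule's other limits, 63 of them granulocytes, 51 Ly6c+ monocytes and 46 DC/Mac cells.

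Signs of other cell types were few and uneven. A T cell list of 8 genes gave 51.4 CPM (a gene's UMIs per 1000000 counted in the same cells) in young WT members, 14.9 in aged WT, 61.6 in the knockout and 288 in the double knockout. At least 10 UMIs of that list were found in 1 knockout member (27 UMIs) and 6 double knockout members (at most 50 UMIs). For the B cell list 1 member reached 10 UMIs, and for the NK cell list 5, partly through Nkg7 alone. Nkg7 is also a leading gene of a neutrophil precursor-like cluster of members described below (379 CPM, 18 of 26 cells). The doublet caller Scrublet marked 2 members. Together these signs touched 12 members, 3 in the knockout and 9 in the double knockout. Without them the double knockout share was 0.432 times that of the knockout. Of 27160 distinct barcodes 416 occurred in more than 1 library, and 1 member's barcode was among them. Pairs of myeloid cells in 1 droplet would carry none of these signs, and their part in the members was not tested.

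Against annotated myeloid cells of the same library, the members carried more RNA of cell cycle genes and of the primary granule proteases Elane and Prtn3. Of 5419 genes measured in both knockout libraries, 819 (15.1%) were at least 1.5-fold higher in the members in both and 415 (7.66%) lower in both. The primary granule protease Elane (neutrophil elastase) led the higher genes, at 270 CPM in knockout members against 8.32 in annotated myeloid cells (log2 ratio 4.97), and at 622 against 11.2 in the double knockout (5.77). Proteinase 3, Prtn3, was higher by a log2 ratio of 3.40 and 3.51 in the same order. In the knockout the secondary granule genes did not follow, with log2 ratios of -0.78 for Camp, -0.52 for Ngp and -1.19 for Ltf. Granulocytes, which carry these genes, were 293 of the 715 annotated myeloid cells there. Of all 10 genes of the precursor list 5 were higher in each library, and 3 were lower in the knockout and 1 in the double knockout. The next 8 genes all serve DNA replication or the cell cycle, and among them the ribonucleotide reductase subunit Rrm2 reached 3.59 and 3.03 and the topoisomerase Top2a 3.57 and 3.03. The lower genes marked other cell types. The basophil protease Mcpt8 had 2 UMIs in knockout members and 0 in double knockout members, against 1963 and 1916 in annotated myeloid cells. The macrophage complement gene C1qa had 7 and 0 UMIs against 872 and 256. Of the 8 genes of the basophil and mast cell list, 6 were at 0 UMIs over all members. Scaling by TMM factors, which centre the bulk of genes, instead of totals lowered every log2 ratio here by 0.19 in the knockout and 0.21 in the double knockout. It turned a split of 23.4% of genes higher and 13.7% lower in the knockout into 15.1% and 19.3%, and one of 24.9% and 15.3% in the double knockout into 15.9% and 22.1%. The genes named kept their directions.

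The members were grouped by clustering their own counts, which gave 6 clusters. Each is called by a leading gene, and the genes given for it describe the clustering and are no test. In the order young WT, aged WT, knockout and double knockout, the Xcr1 cluster held 1, 5, 3 and 3 cells, the Fcnb cluster 1, 0, 11 and 14, and the Cebpe cluster 0, 0, 9 and 10. The Cd7 cluster held 0, 1, 19 and 16, the Saa3 cluster 0, 0, 24 and 2, and the Ccnb1 cluster 0, 0, 13 and 6. By marker lists the Xcr1 cluster is cDC1-like, and the Fcnb and Cebpe clusters are neutrophil precursor-like. The other 3 clusters carried monocyte genes but not markers enough among their leading genes for a name, and stay unnamed.

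The cDC1-like cells resembled type 1 conventional dendritic cells, which cross-present antigen to CD8 T cells. The chemokine receptor Xcr1 (ENSMUSG00000060509) had 428 CPM, with UMIs in 10 of 12 cells and 0 UMIs in the other members, at least 197-fold higher against a floor of 3 counts. All 9 genes of the cDC1 list were detected and summed to 4977 CPM. The cells also carried the transcription factors Irf8 (2431 CPM) and Batf3 (235 CPM), the dead-cell receptor Clec9a (157 CPM) and the cytokine receptor Flt3 (235 CPM). Their MHC class II RNA was high, with the invariant chain Cd74 at 31245 CPM and H2-Aa at 9191 CPM. Of the 6 aged WT members 5 were in this cluster, and their Xcr1 level ran from 445 to 875 CPM (median 598). In the double knockout 2 of 3 cells of this cluster held 19 and 50 UMIs of the T cell list. The share of barcodes was 0.0719% in aged WT, 0.0526% in the knockout and 0.0411% in the double knockout, and the double knockout to knockout ratio of 0.781 had an interval of 0.158 to 3.87.

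The neutrophil precursor-like cells differed between their 2 clusters in the granule genes they carried. In the Fcnb cluster the secondary granule genes Ngp (neutrophilic granule protein) and Camp (cathelicidin) stood at 63647 and 59059 CPM, and the alarmin S100a8 at 156282 CPM. Primary granule genes were present too, with Elane at 1479 CPM in 12 of 26 cells, Prtn3 at 557 CPM in 18 and Mpo (myeloperoxidase) at 193 CPM in 9. The lectin Fcnb (ficolin B) reached 1950 CPM and the granule tetraspanin Cd63 1088 CPM. In the Cebpe cluster Elane was at 201 CPM and Mpo at 5.02 CPM, with Ngp at 78615 CPM, Ltf (lactoferrin) at 9503 CPM and the transcription factor Cebpe at 1100 CPM. Among genes of mature neutrophils, the chemokine receptor Cxcr2 (7.43 CPM), the gelatinase Mmp9 (48.3 CPM) and Retnlg (163 CPM) were low in the Fcnb cluster. S100a8 and S100a9, which are also on the mature neutrophil list, were among its leading genes, at 156282 and 97482 CPM. All 10 genes of the precursor list were detected in both clusters, and summed to 147734 CPM in the Fcnb cluster and 167260 CPM in the Cebpe cluster.

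The 150 bases before the start of 4 genes are shown because these genes set the clusters apart and the files count their RNA. They come from RefSeq on GRCm38.p6 and run 5′ to 3′ in the gene's direction. Capitals mark each match to TTNNGNAA, a core of C/EBP sites, on either strand.
Ngp: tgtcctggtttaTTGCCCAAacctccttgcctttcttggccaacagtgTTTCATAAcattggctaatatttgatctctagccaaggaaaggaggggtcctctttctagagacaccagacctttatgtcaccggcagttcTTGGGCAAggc
Camp: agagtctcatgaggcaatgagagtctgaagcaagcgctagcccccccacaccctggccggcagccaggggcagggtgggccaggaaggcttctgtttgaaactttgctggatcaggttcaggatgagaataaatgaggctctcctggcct
Fcnb: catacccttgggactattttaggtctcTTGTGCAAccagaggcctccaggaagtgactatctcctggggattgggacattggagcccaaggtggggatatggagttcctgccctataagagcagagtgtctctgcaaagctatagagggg
Saa3: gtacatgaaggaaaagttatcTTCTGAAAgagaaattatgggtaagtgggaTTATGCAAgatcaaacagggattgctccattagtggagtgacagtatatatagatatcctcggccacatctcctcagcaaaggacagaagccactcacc
The windows lie at chr9:110419658-110419807 (plus strand), chr9:109849457-109849606 (minus), chr2:28084879-28085028 (minus) and chr7:46715677-46715826 (minus). Ngp has 3 matches, at 138, 102 and 11 bases before the start. Fcnb has 1 at 123 bases, Saa3 has 2 at 129 and 99 bases, and Camp has 0. Of 10 genes looked at, 4 held a match (Ltf is the other), and so did 22.7% of all 32851 promoter windows of that length. A match is a description of these letters.

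The precursor-like share of barcodes did not differ between the knockout libraries beyond counting error. It was 20 cells, 0.351% of barcodes (0.214% to 0.541%), in the knockout and 24 cells, 0.329% (0.211% to 0.489%), in the double knockout, a ratio of 0.938 (0.519 to 1.70). Annotated granulocytes numbered 37 in young and 16 in aged WT, 293 in the knockout and 461 in the double knockout. Of granulocytes plus precursor-like cells, the latter were 6.39% (3.95% to 9.70%) in the knockout and 4.95% (3.20% to 7.27%) in the double knockout. Aged WT held 0 such cells, which allows a share of up to 0.0432% of barcodes, and young WT held 1. Ngp ran from 42645 to 101488 CPM per cell (median 76394) in the knockout and from 18194 to 106439 (median 75240) in the double knockout. The per-cell ranges overlapped, as they did for Camp, with medians of 63026 and 62151 CPM.

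The 3 unnamed clusters shared the monocyte genes Ly6c2, at 2477 to 2969 CPM, and Ccr2, the receptor that lets monocytes leave the marrow. In the Cd7 cluster Ly6c2 was uneven, from 0 to 8005 CPM per cell (median 2201), with UMIs in 30 of 36 cells. The Ccnb1 cluster was led by mitotic genes, with the cyclin Ccnb1 at 289 CPM, Birc5 at 658 CPM and Mki67 in 18 of 19 cells. It also held the monocyte transcription factor Klf4 at 224 CPM and the coagulation factor F13a1 at 688 CPM. The Cd7 cluster split further when clustered more finely. One set of 19 cells (1 aged WT, 12 knockout, 6 double knockout) carried Cd7 at 1082 CPM, the lectin-like receptor Klrd1 at 302 CPM, the transcription factor Tcf4 at 266 CPM and Flt3 at 173 CPM, with Cd74 at 10872 CPM. These genes are shared by several dendritic cell types. The other set of 17 cells (7 knockout, 10 double knockout) carried the primary granule genes Prtn3 at 1387 CPM, Elane at 733 CPM, Ctsg (cathepsin G) at 654 CPM and Mpo at 420 CPM together with Ly6c2 at 4498 CPM, and its Cd74 was at 132 CPM.

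The Saa3 cluster had little RNA of the proliferation gene Mki67. Saa3 (serum amyloid A3, an inducible acute phase gene) stood at 3458 CPM in 13 of 26 cells. Beside it were Wfdc17 at 1982 CPM, the lipid carrier Apoe at 787 CPM (118 of its 202 UMIs in 1 cell, per-cell median 103 CPM), the lectin receptor Clec4a3 at 506 CPM and Pla2g7, which degrades platelet-activating factor, at 245 CPM. Annotated Ly6c+ monocytes of aged WT carried these 4 genes as well, with Wfdc17 at 1522 CPM, Apoe at 1937 CPM, Clec4a3 at 509 CPM and Pla2g7 at 238 CPM. Ly6c2 (2477 CPM), Ccr2 (1453 CPM) and the growth factor receptor Csf1r (331 CPM) were present, and Mki67 was at 3.89 CPM. Since 24 of the 26 cells came from the knockout library, the cluster and that library cannot be told apart.

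**Figure D2:**
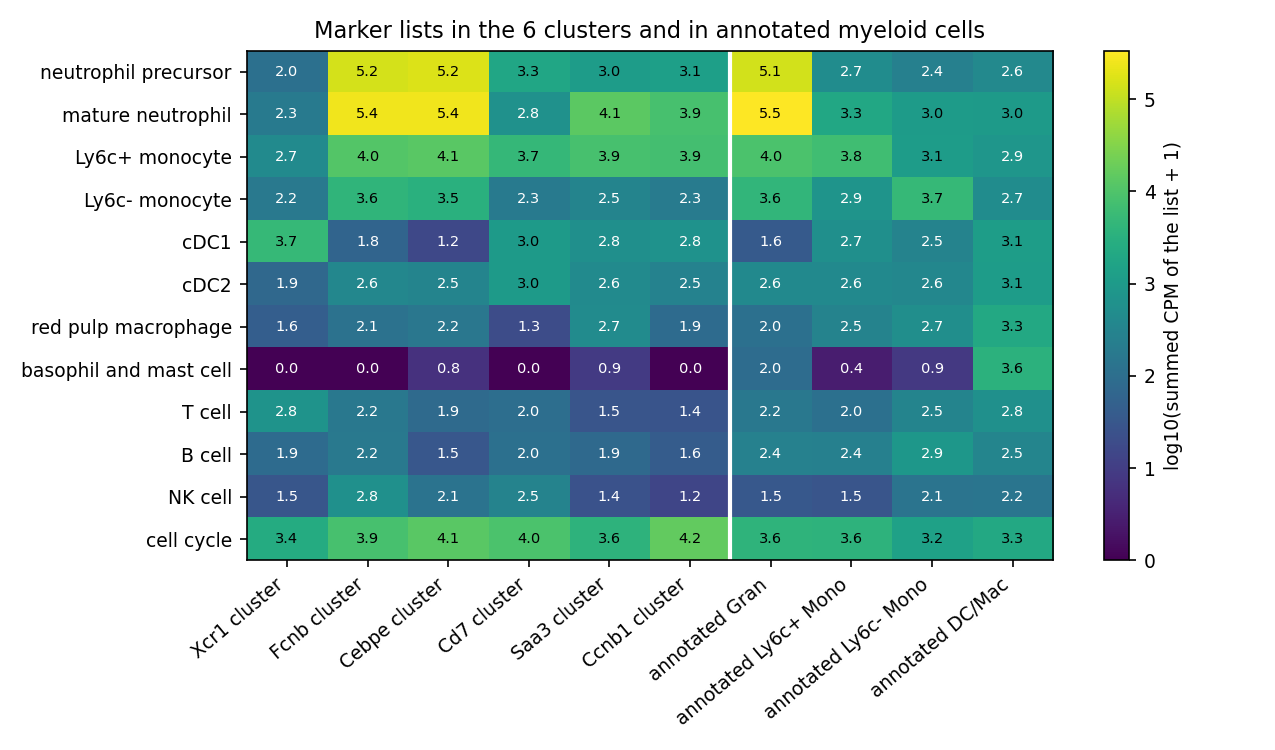
Summed level of each marker list (rows) in the 6 clusters of members and, right of the white line, in annotated myeloid types, as log10(CPM + 1) in colour and number. The neutrophil precursor list is high in the Fcnb and Cebpe clusters (147734 and 167260 CPM) and also in annotated granulocytes (139680 CPM), and the cDC1 list is highest in the Xcr1 cluster (4977 CPM).

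Together the unnamed clusters held 1 cell in aged WT, 56 in the knockout (0.982% of barcodes, 0.743% to 1.27%) and 24 in the double knockout (0.329%, 0.211% to 0.489%). The double knockout to knockout ratio was 0.335 (0.208 to 0.540). Annotated Ly6c+ monocytes were taken for comparison, since the clusters share the monocyte genes Ly6c2 and Ccr2. A set of 19 cells of the Cd7 cluster also carried dendritic cell genes, and which annotated type is nearest was not tested. The annotated Ly6c+ monocytes numbered 53 in young and 76 in aged WT, 78 in the knockout and 106 in the double knockout. Of these monocytes plus the unnamed cells, the unnamed cells were 41.8% in the knockout and 18.5% in the double knockout, a ratio of 0.442 (0.292 to 0.668). By cluster the barcode ratio was 0.0651 (0.0154 to 0.275) for the Saa3 cluster, 0.361 (0.137 to 0.948) for the Ccnb1 cluster and 0.658 (0.339 to 1.28) for the Cd7 cluster. The interval of the Cd7 cluster includes 1. Since these cells had to exceed 9000 UMIs, the deeper annotated monocytes of the knockout library (median 6776.5 against 5637 UMIs) stand beside the ratios, and their part was not tested.

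Genes per cell were compared after thinning each member to 9000 UMIs, for which every member was deep enough. The medians were 1866.5 genes in the Fcnb cluster and 1923 in the Cebpe cluster, against 2481.5 in the Xcr1 cluster, 2448.5 in the Saa3 cluster, 2646 in the Cd7 cluster and 2648 in the Ccnb1 cluster. Without thinning they were 2036.5, 2045, 2953.5, 2551.5, 3019.5 and 2992 in the same order. The precursor-like clusters thus had the fewest genes on both counts, and S100a8 alone took 156282 CPM in the Fcnb cluster and 160650 CPM in the Cebpe cluster. The proliferation gene Mki67 was found after thinning in 17 of 26 cells of the Fcnb cluster, 16 of 19 of the Cebpe cluster, 18 of 36 of the Cd7 cluster and 18 of 19 of the Ccnb1 cluster. It was found in 1 of 26 cells of the Saa3 cluster and 3 of 12 of the Xcr1 cluster.

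Cell cycle RNA was high in 4 of the 6 clusters in both knockout libraries. A list of 16 cell cycle genes had a median per-cell level of 9266 CPM in the knockout and 8387 CPM in the double knockout in the Fcnb cluster, and of 14176 and 12350 CPM in the Cebpe cluster. It was 8753 and 10053 CPM in the Cd7 cluster and 14073 and 17652 CPM in the Ccnb1 cluster. These medians lay above those of annotated granulocytes (2691 and 2516 CPM) and annotated Ly6c+ monocytes (2378 and 2562 CPM). The Xcr1 cluster was at 2680 and 2293 CPM over 3 cells in each library, beside 1722 and 1925 CPM in annotated DC/Mac cells. The Saa3 cluster was at 2605 CPM in the knockout, and its 2 double knockout cells were at 8599 CPM.

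**Figure D3:**
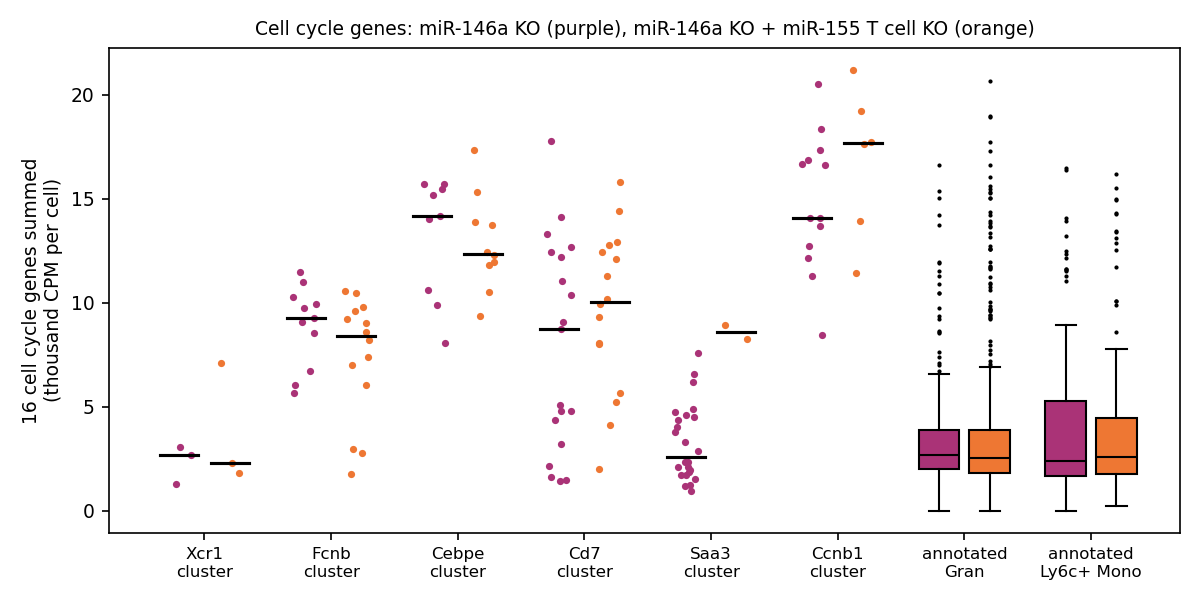
Summed level of 16 cell cycle genes per cell (axis in units of 1000 CPM) in the knockout (purple) and double knockout (orange), with a point for each member and a line at the median, and boxes (median, quartiles, outliers as dots) for annotated cells. The Cebpe and Ccnb1 clusters are highest, with knockout medians of 14176 and 14073 CPM against 2691 and 2378 CPM in the annotated types, whose highest cells reach the same range.

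The precursor-like cells were set against annotated granulocytes of the same library, over genes with at least 20 UMIs. In the knockout 34.1% of genes were at least 1.5-fold higher in the precursor-like cells and 16.6% lower, and in the double knockout 39.6% were higher and 12.4% lower. All 16 cell cycle genes were higher in both libraries, with median log2 ratios of 3.03 and 2.11. Annotated granulocytes also carried the precursor list, at 139680 CPM in all libraries together. Of its measured genes 3 of 8 were higher in the knockout precursor-like cells and 4 of 9 in the double knockout, with none lower (medians 0.47 and 0.32, or 0.056 and -0.17 under TMM scaling, which turns the latter). Elane was higher by 6.05 in the knockout and 6.64 in the double knockout. Its UMIs were uneven, with 121 in 6 of 20 knockout cells (81 in 1 cell) and 255 in 10 of 24 double knockout cells (130 in 1 cell). Of 7 measured genes of the mature neutrophil list 3 were lower in the knockout and 4 in the double knockout, and Retnlg, which marks late neutrophils, had log2 ratios of -5.68 and -4.90. TMM scaling lowered the log2 ratios by 0.42 in the knockout and 0.49 in the double knockout, and turned the split into 18.2% higher and 29.8% lower, and 19.6% and 27.7%. Under it 16 cell cycle genes were still higher in the knockout and 14 in the double knockout, and 5 and 7 mature neutrophil genes were lower.

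The unnamed clusters were set against annotated Ly6c+ monocytes in the same way. In the knockout 16.6% of genes were higher and 13.2% lower, and in the double knockout 22.6% were higher and 17.6% lower. Of 16 cell cycle genes 12 were higher in the knockout (median log2 ratio 1.67) and 15 in the double knockout (2.64). The Ly6c- monocyte list, genes of the patrolling monocytes that Ly6c+ monocytes can become, had 7 of 8 measured genes lower in the knockout (median -2.10), and 5 of 7 lower with 1 higher in the double knockout (-1.93). The MHC class II list, which presents antigen to CD4 T cells, differed between the libraries in these sums. It had 6 of 8 genes higher in the knockout (0.87) and 1 higher and 2 lower in the double knockout (-0.10). Class II RNA was uneven between cells. In the knockout Cd74 was at 5806 CPM summed, with a per-cell median of 275 CPM and a highest cell at 43543 CPM. In the double knockout its per-cell median was 102 CPM and its highest cell was at 34735 CPM. TMM scaling lowered the log2 ratios by 0.14 in the double knockout and turned its split into 17.3% higher and 22.3% lower.

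Between the knockout libraries, granule genes took a higher share of the members' RNA in the double knockout, and Saa3 a lower share. Over 3252 genes with at least 50 UMIs, 198 (6.09%) were at least 1.5-fold higher in the double knockout members and 363 (11.2%) lower. For 19 of the former and 59 of the latter the whole interval, which leaves out the spread between cells, lay beyond 1.5-fold. With at least 20 UMIs, the minimum used for the gene lists, 9.62% were higher and 14.5% lower. The members summed to 19452 UMIs in young and 67118 in aged WT, 892383 in the knockout and 544593 in the double knockout, so that WT values rest on few cells.

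Granule genes were higher in the double knockout members. Camp (ENSMUSG00000038357) had 34392 CPM in young and 0 UMIs in aged WT, 14878 CPM in the knockout and 27241 CPM in the double knockout, a double knockout to knockout ratio of 1.83 (1.79 to 1.87). Ngp (ENSMUSG00000032484) had 16656 CPM, 0 UMIs, 17395 CPM and 31345 CPM, a ratio of 1.80 (1.76 to 1.84). Young WT has 1 precursor-like cell among its 2 members, and aged WT has 0 among 6. Fcnb had 36 UMIs in young and 0 in aged WT, 361 CPM in the knockout and 867 CPM in the double knockout, a ratio of 2.40 (2.08 to 2.78). Cd63 had a ratio of 2.19, and Igfbp4, which binds insulin-like growth factors, 3.22 (2.03 to 5.22).

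The mix of clusters moves with these ratios. Precursor-like cells were 25.3% of knockout members (16.2% to 36.4%) and 47.1% of double knockout members (32.9% to 61.5%). When both libraries were given the knockout's proportions of the 4 clusters with at least 5 members in each, the log2 ratio of Camp was -0.035 and that of Ngp -0.064, so that both directions turned. Within the precursor-like cells alone the per-cell ranges overlapped, as above. In annotated granulocytes the ratio was 0.995 for Camp, 1.06 for Ngp and 1.10 for Fcnb.

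A few single cells carried much of the other higher genes. Retnlg had 25 UMIs in the knockout members and 336 in the double knockout members, a ratio of 22.0 (14.7 to 34.5). Of the 336 UMIs 287 (85.4%) were in 1 cell of the Saa3 cluster, which also held 888 UMIs of S100a8, 75 of Ngp and 48 of Ly6c2. Without that cell the ratio was 3.21. Mpo had a ratio of 4.96 (3.34 to 7.55), and 2.59 without the cell with the most UMIs. Elane had 62 UMIs in young and 0 in aged WT, 270 CPM in the knockout and 622 CPM in the double knockout, a ratio of 2.30 (1.95 to 2.73), and 1.45 without 1 cell of 130 UMIs.

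**Figure D4:**
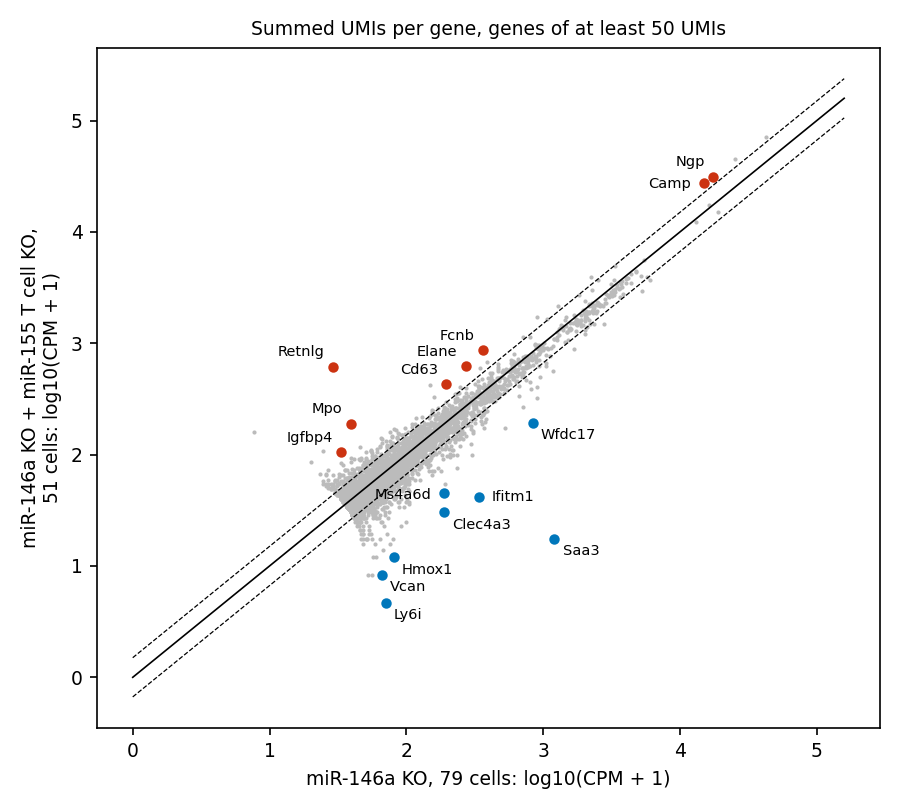
Level of each gene of at least 50 UMIs in double knockout members against knockout members, as log10(CPM + 1) on both axes, with named genes coloured red where higher and blue where lower. Camp and Ngp lie above equality (ratios 1.83 and 1.80), and Saa3 lies far below it (0.0137).

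Saa3 (ENSMUSG00000040026) had the lowest ratio among the named genes. It had 0 UMIs in the WT members, 1077 UMIs (1207 CPM) in the knockout and 9 UMIs (16.5 CPM) in the double knockout, a ratio of 0.0137 (0.00624 to 0.0261). The knockout UMIs lay in 24 of 79 cells, with 70.8% in the 5 highest cells and 10 UMIs or more in 11 cells. The double knockout UMIs lay in 6 of 51 cells, and none of these held 10. Both double knockout cells of the Saa3 cluster had 0 UMIs. The gene was high in part of the knockout members only, and most knockout cells, like most double knockout cells, had 0 UMIs. In annotated Ly6c+ monocytes it was found in 35 of 78 knockout cells and 17 of 106 double knockout cells, and in no WT cell. The annotated ratio was 0.280 (0.243 to 0.323), at 1554 CPM in the knockout and 435 CPM in the double knockout, with 162 of the 261 double knockout UMIs in 1 cell. Over the 4 clusters weighted by the knockout's proportions, which leave out the Saa3 cluster, the members' log2 ratio was -4.01.

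**Figure D5:**
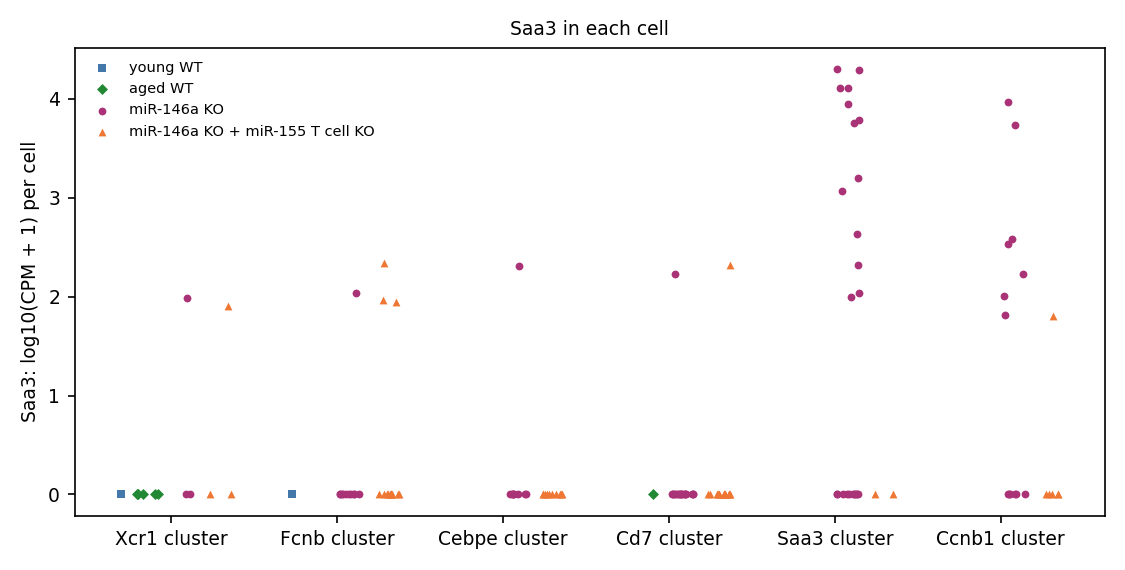
Saa3 level of each member as log10(CPM + 1), by cluster and library, each point a cell. In the knockout 24 of 79 cells had a UMI, mostly in the Saa3 and Ccnb1 clusters, in the double knockout 6 of 51, and in the WT libraries none.

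Other named genes were lower in the double knockout members too. Of them Wfdc17, Clec4a3, Hmox1 and Ms4a6d are among the 10 leading genes of the Saa3 cluster, which held 24 knockout and 2 double knockout cells. The ratios of these genes are thus not separate from the share of that cluster, whose part in them was not tested. Wfdc17 had 746 UMIs in the knockout and 105 in the double knockout (ratio 0.231, 0.186 to 0.283), and 0 in both WT libraries. Clec4a3 had 168 and 16 UMIs (0.156), Ms4a6d, of the membrane-spanning MS4A family, had 168 and 24 (0.234), and the proteoglycan gene Vcan had 58 and 4 (0.113, and 0.172 without the highest cell). The haem-degrading enzyme Hmox1 had 71 and 6 UMIs (0.138, and 0.232 without the highest cell). The interferon-inducible Ifitm1 had 302 and 22 (0.119), with its highest cell in the Cd7 cluster, and Ly6i, of the Ly6 family, had 62 and 2 (0.0529, 0.00626 to 0.199, and 0.147 without a cell of 30 UMIs). In annotated Ly6c+ monocytes the ratio was 0.261 for Ifitm1, 0.765 for Wfdc17, 0.928 for Clec4a3 and 2.17 for Ly6i. The direction of Ly6i thus differed between the members and the annotated monocytes, and the difference was not tested.

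Within the precursor-like cells 11.9% of 2008 genes were higher in the double knockout and 7.92% lower, or 9.31% and 10.6% under TMM scaling. The named genes were few. Crip1, a small LIM protein, had 13 UMIs in the knockout and 102 in the double knockout (ratio 6.81, 3.81 to 13.2), 49 of them in 1 cell, and 3.51 without it. The calcium-binding S100a6 had 60 and 177 UMIs (2.56), and the lysosomal saposin precursor Psap 28 and 81 (2.51). Orm1, the acute phase protein orosomucoid, had 115 and 63 (0.475). The precursor list itself had 2 of 9 measured genes higher and none lower (median -0.04), and of 16 cell cycle genes 2 were lower (median -0.12). The ER chaperone and secretory list had 4 of 8 genes higher (0.51), and the list of lysosomal cathepsins and hydrolases 3 of 10 (0.28). Among the double knockout's 24 precursor-like cells 6 had counts of an other-lineage list or a doublet mark, against 1 of 20 in the knockout. The NK cell list holds Nkg7, which is also a leading gene of the Fcnb cluster (379 CPM, 18 of 26 cells). Its counts there need not mark another lineage.

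Within the unnamed clusters 15.5% of 4822 genes were higher in the double knockout and 11.6% lower, or 12.2% and 14.3% under TMM scaling. Irf8 (ENSMUSG00000041515), a transcription factor of monocyte and dendritic cell precursors, had 233 UMIs in the knockout and 251 in the double knockout, a ratio of 2.61, against 1.33 in annotated Ly6c+ monocytes. The replication genes Lig1 (DNA ligase), Slbp (histone messenger binding) and Dut (dUTPase) had ratios of 2.88, 2.44 and 2.20, and the histone chaperone Dnajc9 2.55. The fatty acid carrier Fabp5 had a ratio of 2.50 and the tubulin Tuba4a 2.12. Ctsg had a ratio of 2.62, and 1.48 without 1 cell. The cell cycle list had 9 of 16 genes higher and none lower (median 0.60), and the neutrophil precursor list 7 of 8 higher (1.11). The per-cell median of the cell cycle list was 4837 CPM in the knockout and 11338 CPM in the double knockout over these clusters. In that order it was 8753 and 10053 CPM in the Cd7 cluster, 14073 and 17652 in the Ccnb1 cluster, and 2605 and 8599 in the Saa3 cluster. The part of the cluster mix in both lists was not tested. The lower genes repeated those of all members, with Saa3 at 0.00902 (0.0136 without the highest cell), Ifitm1 at 0.170 and Wfdc17 at 0.297. Hmox1 was at 0.144 (0.265 without the highest cell) and Ly6i at 0.0806 (0.00954 to 0.304, and 0.231 without it). Apoe had 205 and 1 UMIs (0.0118, 0.000297 to 0.0665), with 118 of the 205 in 1 cell and 0.0542 without it, and Pla2g7 had 67 and 3 (0.108, 0.0218 to 0.330, and 0.167 without the highest cell). The Saa3 cluster, which makes up 24 of the 56 knockout cells and 2 of the 24 double knockout cells, was not compared on its own.

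Pathway lists over all members are given at the minimum of 20 UMIs, beside the 9.62% of all genes higher and 14.5% lower and an all-gene median of -0.07. The neutrophil precursor list had 7 of 10 genes higher and none lower (median 0.86, and 0.08 at the knockout's cluster proportions). The mature neutrophil list had 4 of 7 higher and 2 lower (0.74, and -0.14 at those proportions, so that its direction turned). Lists of antigen presentation and uptake were lower. MHC class II had 6 of 10 genes lower and none higher (-0.72), lysosomal cathepsins and hydrolases 7 of 16 lower (-0.53), and phagocytic and Fc receptors 6 of 8 lower (-1.24). Among these Cd74 had 4737 UMIs in the knockout and 1589 in the double knockout, the protease Ctss 809 and 176, and the high affinity Fc receptor Fcgr1 50 and 6. Of the 1589 Cd74 UMIs 834 lay in the 3 double knockout cells of the Xcr1 cluster. In the knockout 3713 of the 4737 lay in the unnamed clusters. The medians of these 3 lists are not given at the knockout's cluster proportions. Precursor-like cells were 25.3% of knockout and 47.1% of double knockout members. In the knockout their Cd74 was at 381 CPM, against 5806 CPM in the unnamed clusters.

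The NF-kB response and interferon gamma lists were also lower, while the type I interferon and chemokine lists were near the background or turned with the cluster proportions. The NF-kB response list had 7 of 12 genes lower and none higher (-0.85, and -0.24 at the knockout's cluster proportions), with the mitochondrial dismutase Sod2 at 196 UMIs in the knockout and 53 in the double knockout. The interferon gamma list had 5 of 7 lower (-1.37, and -0.34), with the GTPase Gbp2 at 46 and 4 UMIs. For type I interferon genes 1 of 5 was lower (-0.16). The inflammatory chemokines had 4 of 5 lower and 1 higher (-0.77, and 0.46 at the knockout's proportions, turning its direction), and the higher one, Ccl5, is also a gene of T cells, whose list had 6 of 6 measured genes higher in the double knockout (2.17). The part of T cell RNA in Ccl5 was not tested. The red pulp macrophage list had 4 of 5 lower and 1 higher (-1.54, and 0.33 at the knockout's proportions, again turning).

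Of the lists of genes that the literature gives as targets of the microRNAs, neither had more genes higher than lower. Of 7 measured miR-146a targets 3 were lower and none higher (median -0.19), and the lowest, the NF-kB subunit Relb, had 32 UMIs in the knockout and 7 in the double knockout. Both libraries lack miR-146a. Of 14 measured miR-155 targets 5 were lower and 1 higher (median -0.40). The highest was Ets1, with 23 and 32 UMIs (log2 ratio 1.17), which T cells also carry. The cell cycle list had 2 of 16 genes higher and none lower (0.32). The MHC class I and ER chaperone lists had no gene past 1.5-fold in either direction (-0.31 and -0.16).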

How the data were processed

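The authors deposited raw UMI counts for each library, a matrix of genes by barcodes, made with Cell Ranger 3.0.0 on mm10 per the submitters' processing notes. They also deposited a cell type name (not a measurement) for part of the barcodes, and the sources used here do not say how the names were assigned. Both 3′ and 5′ chemistry appear in the labels. The libraries summed to 17561683 to 22399381 UMIs.

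Members were selected with Python 3.11.15, numpy 2.4.6 and scipy 1.17.1. They were clustered with scanpy 1.11.5 (Leiden through igraph 0.11.9): scaling to 10000 UMIs, 1000 variable genes, 15 components, 10 neighbours and a resolution of 0.5, with 1 as the alternative. Scrublet was run per library over all barcodes. It marked 1.65% to 2.96% of barcodes and 65.4% to 91.3% of cells annotated as T/B doublets, and no barcode was removed for it.

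UMIs were summed over cells and given as CPM. Sums have exact Poisson intervals, shares Clopper-Pearson intervals, ratios of shares Katz intervals and ratios of sums conditional binomial intervals, at 95%. Log2 ratios add a pseudocount of 1 UMI to each sum. Counts without replicates allow no test. The ratio code was tested on simulated data.

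Named genes between libraries were up to 8 per direction, ranked by the interval bound nearest to 1, with at least 50 UMIs in at least 10 members of the higher library and an interval wholly beyond 1.5-fold. Genes under 20% of their level in the highest annotated class, and immunoglobulin, T cell receptor, haemoglobin, mitochondrial, ribosomal, sex-linked and unnamed genes were left out. Cluster genes were the 10 highest by fold among genes in at least 50% of cells with at least 50 UMIs. Other genes named are members of lists or were chosen after their values were seen. The members and the gene lists were chosen with earlier results of these data known.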

Additional observations from a re-analysis of the deposited data

How the results depend on the processing

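No paired analysis was possible because each group is 1 library. Over 57 values of member shares, cluster shares and gene counts under alternative settings, 44 stayed within their interval or 1.5-fold, 13 moved and 0 reversed. Against annotated myeloid cells plus members, the share ratio to aged WT was 3.27 in the knockout (1.45 to 7.38). It was 1.73 in the double knockout (0.751 to 3.97), where the interval spans equality. Above 12000 UMIs 29 members were left, the double knockout to knockout ratio was 0.313, the precursor-like share was 15.0% in the knockout and 0% in the double knockout, and the Saa3 cluster share was 0% in both. The ratio of aged to young WT had no value there. Other limits left 106 to 139 members. Genes past 1.5-fold (198 higher, 363 lower in the double knockout) were 560 and 844 with at least 20 UMIs, 2588 and 2296 with no minimum (53.0% of them higher, against 35.3%), and 115 and 124 at the knockout's cluster proportions (48.1% higher). Under that last setting, chosen after seeing the data, 3 values of named genes stayed, 11 moved and 2 reversed, Camp (-0.035) and Ngp (-0.064). Of its list medians 20 stayed, 6 moved and 3 reversed, red pulp macrophage (0.33), mature neutrophil (-0.14) and inflammatory chemokines (0.46). These were the only reversals among 196 values of named genes and 230 list medians over all settings. The setting changes the mix of clusters and leaves out the Xcr1 and Saa3 clusters, and the cause was not tested further. With genes of 0 UMIs at their bound (a floor of 3 counts over the cells summed), the list medians printed for the members between libraries stayed the same. The aged WT cluster mix was not run, since no cluster holds 10 aged WT members. Leaving out members with counts of another lineage, also chosen after seeing the data, left 126 members and 206 higher and 344 lower genes. Depth limits every value of WT members, which rest on 8 cells.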

Other observations

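Further gene groups differed between the summed unnamed clusters and annotated Ly6c+ monocytes in both knockout libraries. Of all genes 16.6% were higher and 13.2% lower in the knockout, and 22.6% and 17.6% in the double knockout. The plasmacytoid dendritic cell list had 3 of 5 measured genes higher and 1 lower in the knockout (median log2 ratio 0.98), and 5 of 6 higher and 1 lower in the double knockout (1.84). Its genes Tcf4 and Bst2 were leading genes of the set of 19 cells within the Cd7 cluster. The lectin Cd209a, a marker of some dendritic cells, had 72 UMIs in the knockout and 21 in the double knockout in the unnamed clusters, and 0 in the annotated monocytes of both. The 72 UMIs lay in 5 of 56 cells, and annotated monocytes of the WT libraries carried the gene too, with 77 UMIs (227 CPM) in aged and 22 UMIs (92.0 CPM) in young WT. Cd7, a surface protein shared by lymphoid and dendritic cells, had 186 UMIs against 2 in the knockout and 84 against 0 in the double knockout. The Cd7 UMIs lay in 14 of 56 knockout and 7 of 24 double knockout cells, and 0 of the 26 cells of the Saa3 cluster held any. Phagocytic and Fc receptors had 4 of 8 genes lower in the knockout (-0.67) and 6 of 7 lower in the double knockout (-1.22), with none higher in either. These genes took part in the clustering, so the values describe it.

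Against annotated granulocytes the precursor-like cells differed in antigen presentation genes, and in secretory genes beyond the all-gene share in the double knockout only. Of all genes 34.1% were higher in the knockout (median 0.28) and 39.6% in the double knockout (0.38), and 16.6% and 12.4% were lower. The ER chaperone and secretory list had 3 of 9 genes higher in the knockout (0.33) and 6 of 9 in the double knockout (0.86), with none lower. Its highest gene, the translocon subunit Ssr4, had 118 CPM against 69.3 in the knockout and 179 against 75.6 in the double knockout. MHC class II genes were lower, 4 of 7 in the knockout (-0.62) and 7 of 8 in the double knockout (-1.31, or -1.22 with the gene of 0 UMIs at its bound). TMM scaling turns the secretory median of the knockout to -0.086 and leaves 0.37 in the double knockout, while the class II medians stay negative (-1.04 and -1.80).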
